A study of Mus musculus with 10 samples.

Results

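The chemokine system of the left ventricle after transverse aortic banding (TAB) was examined through 52 genes, of which 33 encode chemokines and 19 encode chemokine receptors, out of 19942 gene symbols on the array. A gene was included when its symbol began with Ccl, Cxcl, Cx3cl, Xcl, Ccr, Cxcr, Cx3cr or Xcr followed by a digit. These genes were read by 58 of 26423 spots, with 2 spots each for Ccl25, Ccr1l1, Ccr2, Ccr9, Cxcl14 and Cxcl9. Adult male C57BL/6J mice of 8 weeks underwent TAB, which narrows the aorta and overloads the left ventricle, or a sham operation. Left ventricles were collected after surgery on days 3, 5, 7, 14 and 28, with 1 TAB and 1 sham sample a day and 10 samples in all. How many mice a sample held is not given in the sources used here. For TAB on day 14, the title says 14 but 1 other label says 15, and the title was followed.

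Chemokines are small secreted proteins that bind G protein-coupled receptors on leukocytes and direct them from the blood into tissue. They fall into the CC, CXC, CX3C and C classes by the spacing of their first cysteines, and most receptors bind several chemokines of a class. In the heart, Ccl2 and its receptor Ccr2 are known for recruiting monocytes, whereas Cxcl12 and Cx3cl1 are made by resident cells also without injury.

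Values are normalized intensities, that is, background-subtracted array signals scaled and quantile normalized over the 10 samples, and a log2 ratio is log2(TAB / sham) on the same day. A spot entered the tests when its scaled intensity was at least 1 in every sample, which kept 42 of the 58 spots and 39 of the 52 genes, 28 chemokines and 11 receptors. The scanner software's flag was read as found or not found, and a spot not found on an array was taken as not well above background there. Of the 58 spots, 18 were found on all 10 arrays (31%, against 47.9% of all spots), 23 on some and 17 on none. Of 12 spots found with 1 operation and never with the other, 9 were found with TAB and 3 with sham, beside 656 and 824 over all spots. The median raw intensity of an array was 34 to 55 for TAB and 42 to 57 for sham, and 52.7% to 59.2% of spots were found on TAB arrays and 54.6% to 59.8% on sham arrays. All 9 cardiomyocyte marker genes were found on all 10 arrays.

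Averaged over the 5 days, 12 of the 39 genes were higher in TAB (13 of 42 spots) and none was lower. They were the chemokines Ccl3, Ccl4, Ccl5, Ccl6, Ccl8, Ccl12, Cxcl2, Cx3cl1 and Xcl1 and the receptors Ccr2, Cx3cr1 and Cxcr6. The mean log2 ratio of the 13 spots ran from 0.84 for Ccl6 to 4.20 for Cxcr6, and each of the 13 had a ratio above 0 on all 5 days. The share was 31% of kept spots, beside 7.47% of all 19976 kept spots called higher and 6.73% called lower. The median mean log2 ratio was 0.44 over the 42 spots, 0.64 for chemokines and 0.22 for receptors, beside -0.05 over all kept spots. The test was limma on log2 values, blocked by day, at a Benjamini-Hochberg adjusted p of 0.05 over all kept spots, so the 5 days served as replicates of the average effect. No chemokine or receptor spot was called lower, and 2 (Ccl11 and Cxcl15) were lower at an unadjusted p of 0.05. Without day 3, 5 or 7 none of the 13 passed, without day 14 only the Ccr2 spot PH_mM_0000937 did, and without day 28 the number was 11. Calls over all kept spots also dropped, from 2836 to 13, 35, 23, 184 and 2773 in that order of days. The mean log2 ratios of the 13 spots were, for example, 0.77 to 4.17 without day 3. With every daily ratio of these spots above 0, leaving out a day could not take their means below 0. With spots below 1 kept at a value of 1, none of the 13 passed either, with adjusted p of 0.0508 to 0.0923.

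**Figure D1:**
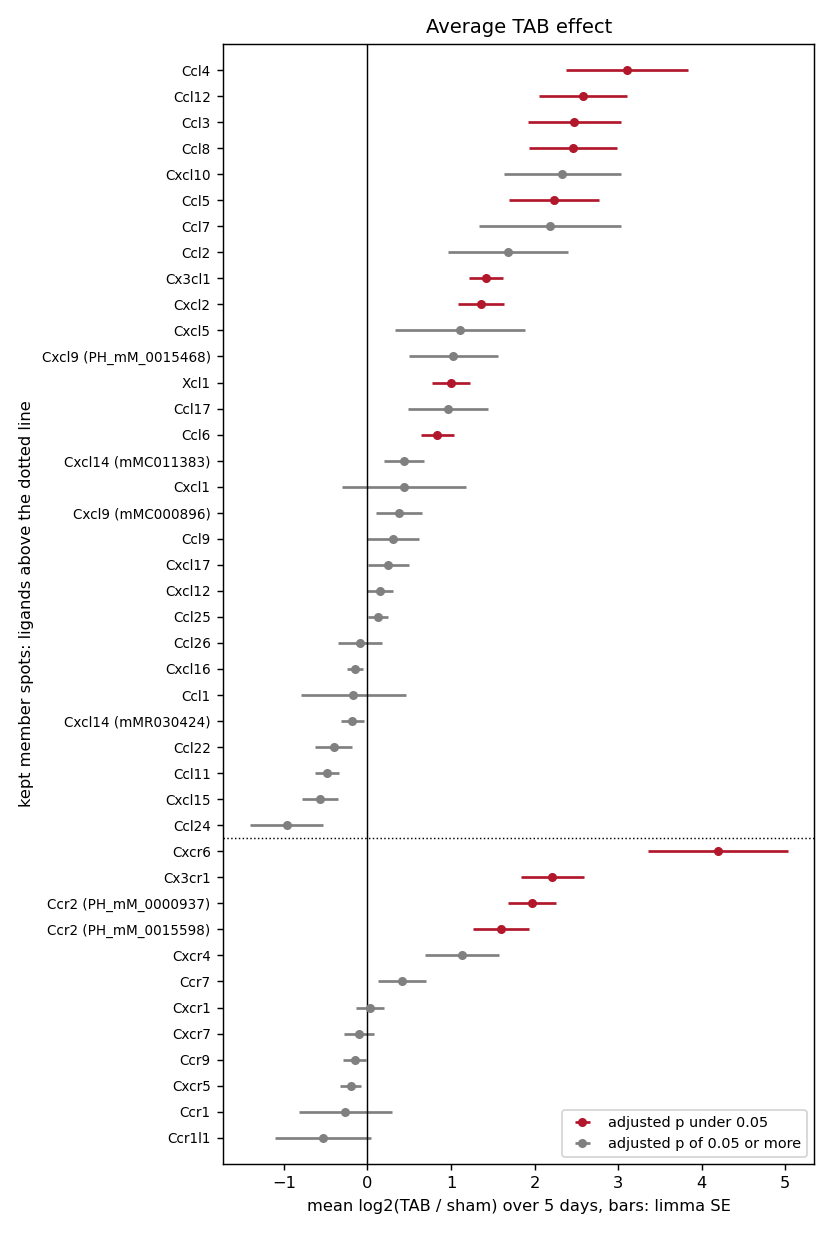
Mean log2 ratio of TAB to sham over the 5 days for the 42 kept chemokine and receptor spots, with the limma SE as bars. The 13 spots with an adjusted p under 0.05 are in red and all lie right of 0, from 0.84 to 4.20.

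In all 5 TAB samples, 10 spots exceeded all 5 sham samples (23.8%, beside 8.78% of all kept spots), and none lay wholly under them. Counting the TAB samples of days 3, 5 and 7 alone against the 5 sham samples, 17 spots were higher (40.5%, beside 15.7% of all kept spots). The 10 were Ccl4, Ccl5, Ccl8, Ccl12, Cxcl2, Cxcl10, Cx3cl1, Xcl1, Cxcr6 and 1 of 2 Ccr2 spots. Because the tissue is bulk ventricle, more cells of a type and more RNA per cell cannot be told apart in any of these values.

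Promoter sequences were at hand from RefSeq (GRCm38.p6) for 38 of the 52 genes, with 40 promoters. The 250 bases before each start were searched on both strands, allowing overlaps, for a nuclear factor kappaB motif (GGGNNTTTC), an interferon response motif (GAAANNGAA) and an AP-1 motif (TGANTCA), which factors activated by inflammatory signals are known to bind. The kappaB motif was in 11 of the 40 promoters (27.5%, beside 3.72% of 32851 promoters), the interferon response motif in 7 (17.5%, beside 7.13%) and the AP-1 motif in 4 (beside 6.75% of all). Of 10 genes higher in TAB with a promoter at hand, 2 held the kappaB motif (Cxcl2 and Xcl1), 2 the interferon response motif (Ccl3 and Ccr2) and none the AP-1 motif, beside 9, 5 and 4 of the other 28 genes. A match is a description of letters and not a measured binding site. The sequences below show these 4 promoters and those of Cxcl10 and Cxcl9, whose TAB intensity was highest on day 7, with the motifs in capitals, each read 5′ to 3′ toward the gene and ending at the base before its start. A motif of the opposite strand appears as its reverse complement.
Cxcl2, chr5:90903649-90903898, plus strand: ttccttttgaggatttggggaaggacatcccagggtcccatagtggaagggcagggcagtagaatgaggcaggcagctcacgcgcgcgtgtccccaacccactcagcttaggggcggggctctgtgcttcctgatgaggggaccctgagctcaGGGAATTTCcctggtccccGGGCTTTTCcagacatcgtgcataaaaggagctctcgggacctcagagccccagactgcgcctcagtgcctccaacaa
Xcl1, chr1:164935523-164935772, minus strand: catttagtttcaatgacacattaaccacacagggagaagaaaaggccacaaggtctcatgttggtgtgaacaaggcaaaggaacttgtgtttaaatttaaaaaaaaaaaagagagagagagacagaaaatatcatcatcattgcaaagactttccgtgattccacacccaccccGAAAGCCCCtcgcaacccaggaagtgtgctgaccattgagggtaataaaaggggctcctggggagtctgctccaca
Ccl3, chr11:83649379-83649628, minus strand: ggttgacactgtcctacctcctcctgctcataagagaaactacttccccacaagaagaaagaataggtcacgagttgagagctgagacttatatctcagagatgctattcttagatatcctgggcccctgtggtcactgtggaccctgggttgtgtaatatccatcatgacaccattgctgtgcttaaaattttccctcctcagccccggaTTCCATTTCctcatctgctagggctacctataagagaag
Ccr2, chr9:124101933-124102182, plus strand: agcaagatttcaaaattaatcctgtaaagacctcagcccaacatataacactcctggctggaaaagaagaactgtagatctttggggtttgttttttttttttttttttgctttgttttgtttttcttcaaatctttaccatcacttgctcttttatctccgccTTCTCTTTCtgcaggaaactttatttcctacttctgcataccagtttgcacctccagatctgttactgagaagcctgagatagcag
Cxcl10, chr5:92348890-92349139, minus strand: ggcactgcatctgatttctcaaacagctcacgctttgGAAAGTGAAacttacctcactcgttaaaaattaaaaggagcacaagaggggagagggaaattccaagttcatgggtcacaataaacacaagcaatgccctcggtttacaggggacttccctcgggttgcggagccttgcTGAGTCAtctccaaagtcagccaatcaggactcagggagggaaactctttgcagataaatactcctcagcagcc
Cxcl9, chr5:92328080-92328329, minus strand: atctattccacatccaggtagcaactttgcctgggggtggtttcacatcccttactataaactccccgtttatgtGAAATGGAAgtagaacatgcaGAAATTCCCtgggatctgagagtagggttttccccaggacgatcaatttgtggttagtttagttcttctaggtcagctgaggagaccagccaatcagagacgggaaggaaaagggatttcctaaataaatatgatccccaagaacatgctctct
In Cxcl2 the kappaB motifs began 97 and 78 bases before the start, and in Xcl1 76 bases before it. The interferon response motif began 39 bases before the start in Ccl3, 86 in Ccr2, 213 in Cxcl10 and 175 in Cxcl9. Cxcl10 also held an AP-1 motif 74 bases before its start, and Cxcl9 a kappaB motif 154 bases before it.

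Among the ligands of Ccr2, which draw monocytes, Ccl12 was called higher and Ccl2 and Ccl7 were not. In the order of days 3, 5, 7, 14 and 28, used throughout, Ccl12 had intensities of 2061, 3165, 3437, 968 and 642 in TAB and 294, 168, 318, 263 and 439 in sham. Every TAB value lay above every sham value, and TAB was highest on days 5 and 7. The mean ratio was 2.58 on the log2 scale (5.98-fold, SE 0.52, adjusted p = 0.0327). The Ccl12 spot also carries the symbol LOC100862578, so it may read more than 1 gene. For Ccl2, intensities were 576, 779, 789, 127 and 95.6 in TAB and 165, 39.5, 117, 198 and 83.6 in sham. The TAB values of days 3, 5 and 7 exceeded all sham values, and those of days 14 and 28 lay among them, and the mean ratio of 1.69 (SE 0.72, adjusted p = 0.158) was not called. Ccl7 had 288, 426, 586, 60.2 and 58.6 in TAB and 56, 10.7, 53.8, 76.5 and 53.8 in sham. It had the same split between days, with a mean ratio of 2.18 (SE 0.85, adjusted p = 0.131), and its sham spot of day 5 was not found. Without day 5 the mean ratio was 1.40 for Ccl7 and 1.03 for Ccl2, and without day 14 it was 2.81 and 2.27.

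Ccl8, a further monocyte chemoattractant, was higher in TAB on each day. Its intensities were 240.4, 421, 633, 109.6 and 72.7 in TAB and 57.1, 43.3, 37.7, 17.9 and 60.2 in sham. The groups did not overlap, although TAB on day 28 was close to sham on that day, and the mean ratio was 2.46 (5.51-fold, SE 0.52, adjusted p = 0.0359). The sham spot of day 14, with the lowest sham value, was not found. The spot also carries the symbol LOC100503254. Ccl6, a CC chemokine of myeloid cells, had 544, 569, 833, 337 and 308 in TAB and 249.7, 336, 305, 206 and 278 in sham. The TAB value of day 28 lay within the sham range, and the mean ratio of 0.84 (SE 0.20, adjusted p = 0.044) was the smallest called.

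Ccl3, Ccl4 and Ccl5, which attract macrophages and T cells, were all called higher and were not found on any sham array. Ccl4 was found on all 5 TAB arrays, Ccl5 on 4 and Ccl3 on 3. Intensities of Ccl4 were 165, 211, 158, 54.5 and 34.5 in TAB and 15.9, 2.70, 18.4, 19 and 14.7 in sham. TAB exceeded sham without overlap, and the ratio on day 5 (6.29 on the log2 scale) was taken against a sham value of 2.70, the lowest of the 5. With each sham sample raised to the lowest signal of a found spot on its array where it lay under it, Ccl4 was at least 7.18-fold higher (mean log2 ratio 3.10, SE 0.73, adjusted p = 0.0432). Without day 5 the bound for Ccl4 was 4.95-fold and the mean log2 ratio 2.31. That lowest signal was 1.72 to 14.2 over the arrays, and signals of spots not found could lie above it. Folds given as at least, here and below, are therefore not strict lower limits. Ccl3 had 99.2, 141, 99.7, 39 and 19.7 in TAB and 18.5, 4.58, 16.9, 21.4 and 6.51 in sham, and only the TAB value of day 28 lay within the sham range. It was at least 4.95-fold higher over the 5 days (mean log2 ratio 2.48, SE 0.56, adjusted p = 0.0402) and at least 3.44-fold (mean log2 ratio 1.86) without day 5, with the TAB spots of days 14 and 28 not found. Ccl5, a chemokine of T cells and macrophages, had 20.8, 70.2, 82.8, 39 and 35.6 in TAB and 12.6, 8.70, 3.88, 14.1 and 12.1 in sham. It did not overlap between the groups, was highest in TAB on days 5 and 7, and was at least 3.64-fold higher (mean log2 ratio 2.24, SE 0.54, adjusted p = 0.0452). With median scaling alone Ccl5 was no longer called (adjusted p = 0.0501).

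Of the CXC chemokines, Cxcl2 was called and Cxcl10 was not. Cxcl2, a neutrophil attractant that binds Cxcr2, was found on 3 TAB arrays and no sham array. Its intensities were 32, 53.8, 56.6, 34 and 17.7 in TAB and 11.8, 13, 14.2, 17 and 14.1 in sham. The groups did not overlap, with the TAB value of day 28 just above the highest sham value, and Cxcl2 was at least 2.57-fold higher (mean log2 ratio 1.36, SE 0.27, adjusted p = 0.0327). The bound equals the fitted fold, since no sham value lay under the lowest signal of a found spot on its array. Its TAB spots of days 3 and 28 were not found either. Cxcl10, an interferon-induced ligand of Cxcr3, had 149, 381, 521, 53.3 and 50.9 in TAB and 19, 32, 22.9, 36.4 and 49.1 in sham. All TAB values exceeded all sham values, by a wide margin on days 3, 5 and 7 and hardly on days 14 and 28, and the mean ratio of 2.33 had an SE of 0.70 (adjusted p = 0.0741), with its sham spot of day 7 not found. Cxcl9, a second interferon-induced ligand of Cxcr3, reached 735 in TAB on day 7 on 1 spot and 404 on the other, above all sham values of each. Its other TAB values lay among the sham values or, on day 5, above them on the first spot, and the mean ratios of 1.03 and 0.38 (0.53 and 0.08 without day 7) were not called. Cxcl5 and Cxcl1, which like Cxcl2 attract neutrophils, were found on 3 and 5 of the 10 arrays. Their sham values alone spanned 3.34 and 3.36 on the log2 scale, and their mean ratios were 1.11 (SE 0.78) and 0.44 (SE 0.74), which became 0.34 and -0.08 without day 5. Without day 3 the mean ratio of Cxcl5 was 1.81, and without day 14 that of Cxcl1 was 1.25.

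Cx3cl1, a membrane-bound chemokine of endothelial and other resident cells and the ligand of Cx3cr1, was found on every array. Its intensities were 452, 490.1, 535, 456 and 282 in TAB and 189.5, 101, 205, 194 and 145 in sham. The groups did not overlap, and TAB stayed between 452 and 535 until day 14 and was lower on day 28. Its mean ratio of 1.42 (2.68-fold, SE 0.20) had the lowest adjusted p of the chemokines, 0.0196. Xcl1, the C-class chemokine of T and natural killer cells, had 60.5, 97.8, 108, 50.2 and 53.4 in TAB and 41.7, 27.9, 44.9, 25.3 and 41 in sham. The lowest TAB value lay above the highest sham value, and the mean ratio was 1.00 (SE 0.23, adjusted p = 0.0404). The Xcl1 sham spots of days 5 and 14, with the lowest sham values, were not found.

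**Figure D2:**
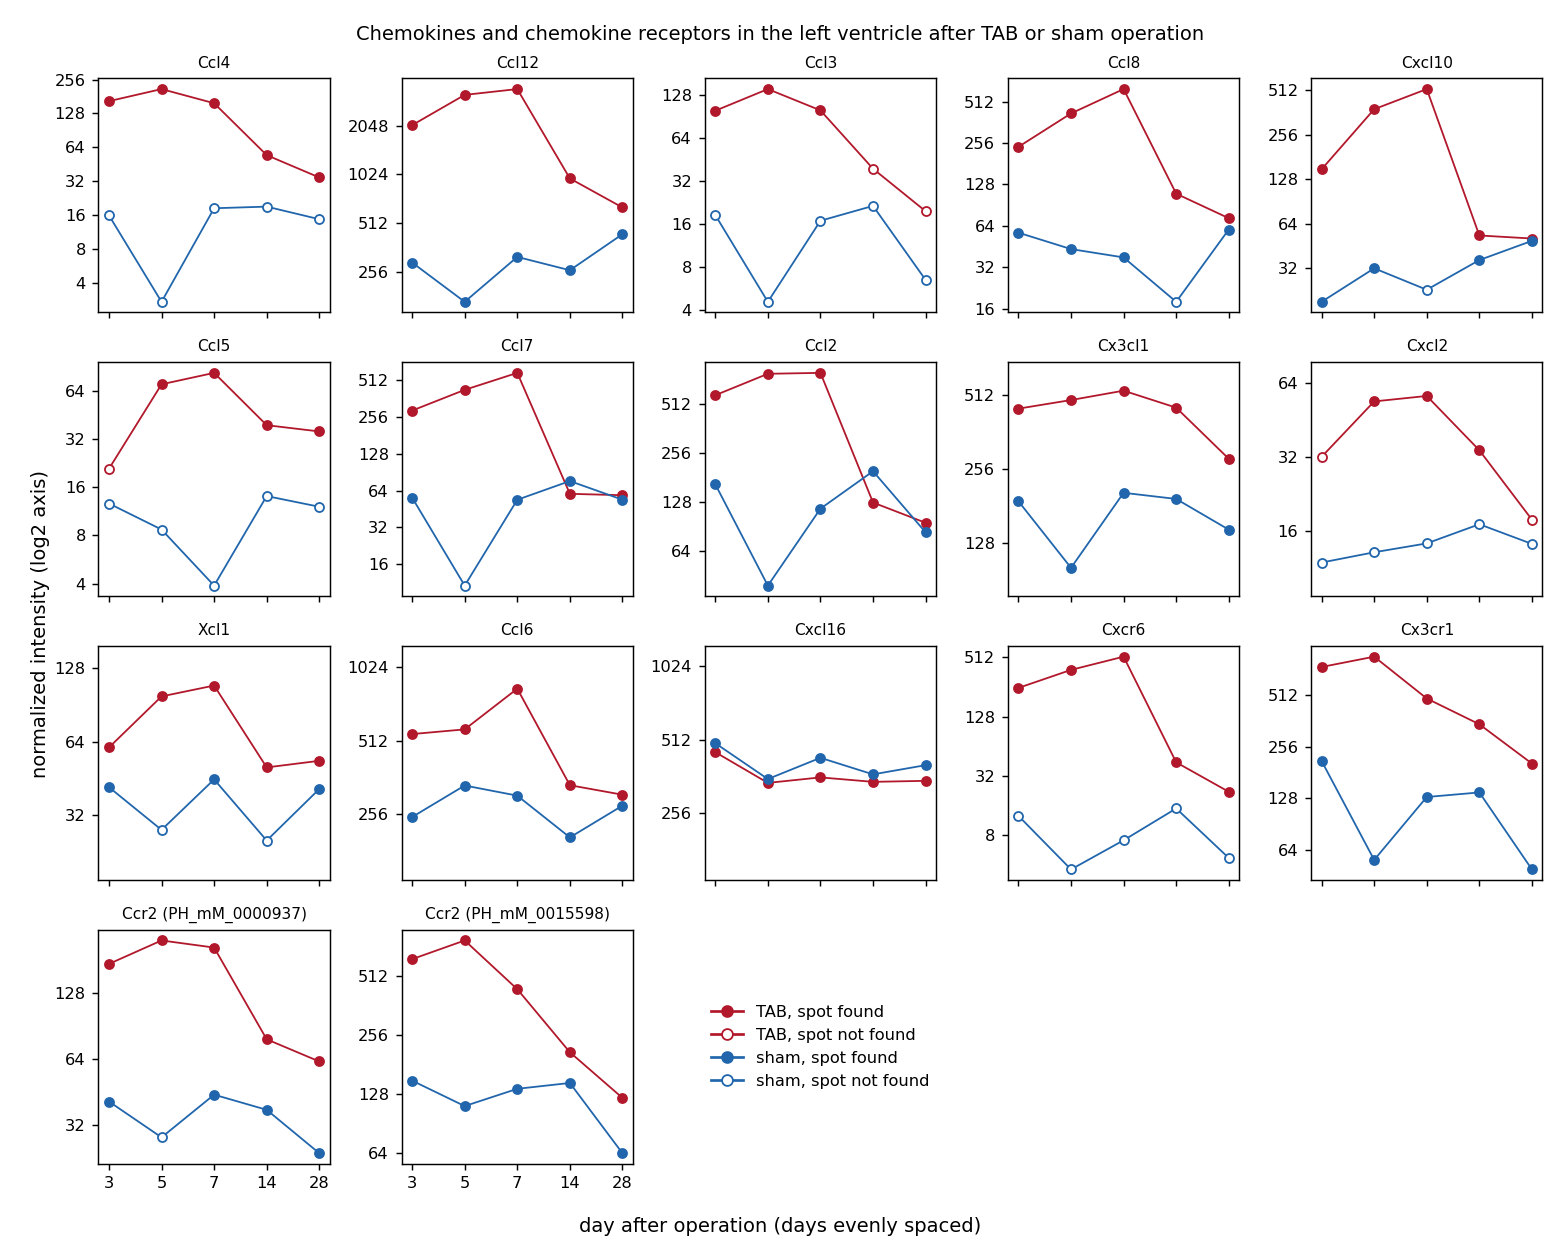
Normalized intensity by day, on log2 axes of differing range, in TAB (red) and sham (blue) for the 13 spots called higher, Cxcl10, whose groups did not overlap, and the partner ligands Ccl2, Ccl7 and Cxcl16; each point is 1 sample and hollow points are spots not found. Most TAB values were highest on day 5 or 7, whereas Cxcl16 differed little between the groups.

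The remaining chemokines gave no call. Cxcl12, the ligand of Cxcr4 made by stromal and endothelial cells, was found on every array, with 4073, 5497, 4184, 5327 and 4838 in TAB and 4658, 3386, 4422, 4573 and 4546 in sham. The groups overlapped, with a mean ratio of 0.15 (SE 0.16, adjusted p = 0.552). Ccl11 (eotaxin, an eosinophil attractant) and Cxcl15 were lower in TAB on 5 and 4 of the 5 days, with mean ratios of -0.49 (SE 0.15, adjusted p = 0.0725) and -0.57 (SE 0.22, adjusted p = 0.121). Ccl24, a second eotaxin, was found on 2 sham arrays and no TAB array and was not called (at least 1.76-fold lower in TAB, adjusted p = 0.178). Ccl17, a ligand of Ccr4, was found on 1 array, that of TAB on day 7 (41.3), and was not called (at least 1.65-fold, adjusted p = 0.216). Ccl1 had a ratio of 2.88 on day 28, when its sham value was 16.1 beside 196 to 224 in the other sham samples and its spot was not found, and ratios of -1.40 to -0.60 on the other days. The mean ratios of Cxcl14 (2 spots), Ccl9, Cxcl17, Ccl25, Ccl26 and Ccl22 lay between -0.41 and 0.44, and neither Cxcl17 nor Ccl26 was found on any array. Removed because of a scaled intensity below 1 in some sample were Ccl20, Ccl28, Cxcl3, Cxcl11, Cxcl13 and the second Ccl25 spot, none of which was found on any array.

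Of the receptors, Cxcr6 had the largest ratio. Cxcr6, a receptor of T and natural killer T cells that binds Cxcl16, was found on all 5 TAB arrays and no sham array. Its intensities were 250.1, 381, 519, 44.1 and 22.2 in TAB and 12.6, 3.62, 7.15, 15 and 4.73 in sham. The TAB values of days 3, 5 and 7 stood far above those of days 14 and 28, all exceeded the sham values, and Cxcr6 was at least 12.7-fold higher (mean log2 ratio 4.20, SE 0.83, adjusted p = 0.0314). With 1 day left out the bound ran from 8.73-fold (mean log2 ratio 3.57, without day 5) to 18.7-fold (4.69, without day 28), and the mean log2 ratio was highest without day 14 (4.86). Its ligand Cxcl16 was found on every array, with 455, 341, 359, 344 and 348 in TAB and 495, 354, 432, 369 and 403 in sham. TAB was the lower on each day, but the groups overlapped and the mean ratio was -0.15 (SE 0.10, adjusted p = 0.331).

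Ccr2, the receptor by which inflammatory monocytes leave the marrow and enter tissue, was called on both spots. On PH_mM_0000937 it had 175, 224, 208, 78.8 and 62.3 in TAB and 40.8, 27.9, 43.9, 37.4 and 23.6 in sham, without overlap but with the sham spot of day 5 not found. On PH_mM_0015598 it had 623, 775, 438, 209 and 122 in TAB and 149.9, 111, 136, 146 and 64 in sham, with the TAB value of day 28 within the sham range. Both spots were highest in TAB on day 5, and their mean ratios were 1.96 (SE 0.29, adjusted p = 0.0205) and 1.60 (SE 0.34, adjusted p = 0.0354). Cx3cr1, a receptor of monocytes and resident macrophages, had 748, 859, 489, 346 and 204 in TAB and 211, 55.8, 130, 138 and 49.1 in sham. From day 5 on TAB was lower at each later day, and on day 28 it was just under the highest sham value, and the mean ratio was 2.21 (4.63-fold, SE 0.37, adjusted p = 0.0256).

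Cxcr4, the receptor of Cxcl12, was found on 3 TAB arrays and 1 sham array. Its intensities were 12.3, 35.8, 21.7, 54.5 and 31.9 in TAB and 19.6, 16.6, 12.9, 12 and 6.51 in sham. Its ratios were 2.18 on day 14 and 2.29 on day 28 but -0.67 on day 3, with the sham spot not found on days 14 and 28 and the TAB spot not found on day 3, and the mean ratio of 1.13 (SE 0.44, adjusted p = 0.133) was not called. Cxcr7 (a scavenger of Cxcl12, now named Ackr3), Cxcr1, Cxcr5, Ccr7 and the kept spot of Ccr9 had mean ratios between -0.20 and 0.41, and Ccr7 was not found on any array. Ccr1, which binds Ccl3, Ccl5, Ccl6, Ccl7 and Ccl9, was found on 1 TAB array and no sham array and was not called (adjusted p = 0.78). The kept spot of Ccr1l1, a gene next to Ccr1, had a mean ratio of -0.54 (SE 0.57), which turned to 0.09 without day 5, when its TAB spot was not found. Receptor spots removed for low intensity were Ccr3, Ccr4, Ccr6, Ccr8, Ccr10, Cxcr2, Cxcr3, Xcr1 and the second spots of Ccr9 and Ccr1l1. Of these, Cxcr3, the receptor of Cxcl9 and Cxcl10, was found on 1 TAB array, with a raw intensity of 28 on day 5, and the second Ccr1l1 spot on 1 sham array. Cxcr2, the receptor of Cxcl2, and Xcr1, that of Xcl1, were not found on any array.

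Of 37 ligand and receptor pairs listed, 14 had both genes kept, and in 2 both were called higher, Ccl12 with Ccr2 and Cx3cl1 with Cx3cr1. The Cxcr6 receptor was called while its ligand Cxcl16 was not, and Ccl3, Ccl5 and Ccl6 were called while Ccr1 was not. For Cxcr4 and Cxcl12 neither gene was called.

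The median ratio of the 42 spots was highest on days 5 and 7. With a log2 ratio above 2 SDs of all kept spots on a day as the call, 11 spots were called up on day 3 (threshold 1.75, beside 3.07% of all kept spots), 17 on day 5 (1.87, beside 3.77%), 15 on day 7 (1.71, beside 3.71%), 7 on day 14 (1.46, beside 3.29%) and 8 on day 28 (1.38, beside 3.36%). These 58 calls came from 20 spots, and Cxcr6 was the only spot called on all 5 days. The 4 calls down were Ccr1l1 on day 5, Ccl24 on day 7, Cxcl1 on day 14 and Ccr1 on day 28, beside 1.69%, 1.77%, 2.37% and 2.55% of all kept spots called down on those days and 2.33% on day 3, when no chemokine or receptor spot was. The TAB spot was not found in any of these 4 cases, nor was the sham spot of Ccr1. Of the 58 calls up, 32 were against a sham spot not found, and in 2 (Ccl17 on day 14 and Ccl3 on day 28) the TAB spot was not found either. The median log2 ratio of the 42 spots was 0.19, 1.09, 1.07, 0.29 and 0.14 in the order of days. A day has 1 sample per operation, so a day's ratio has no replicate check. Of the 13 spots called on average, 8 had their highest TAB value on day 7 and 5 on day 5, whereas 10 had their highest ratio on day 5. These days of the highest values were not counted over all kept spots, so they are not shown to be particular to these genes. The sham sample of day 5 held the lowest sham value for 5 of the 13 (38.5%), for 28.6% of the 42 spots and for 19.4% of all kept spots, and its part in the ratios of day 5 was not tested.

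**Figure D3:**
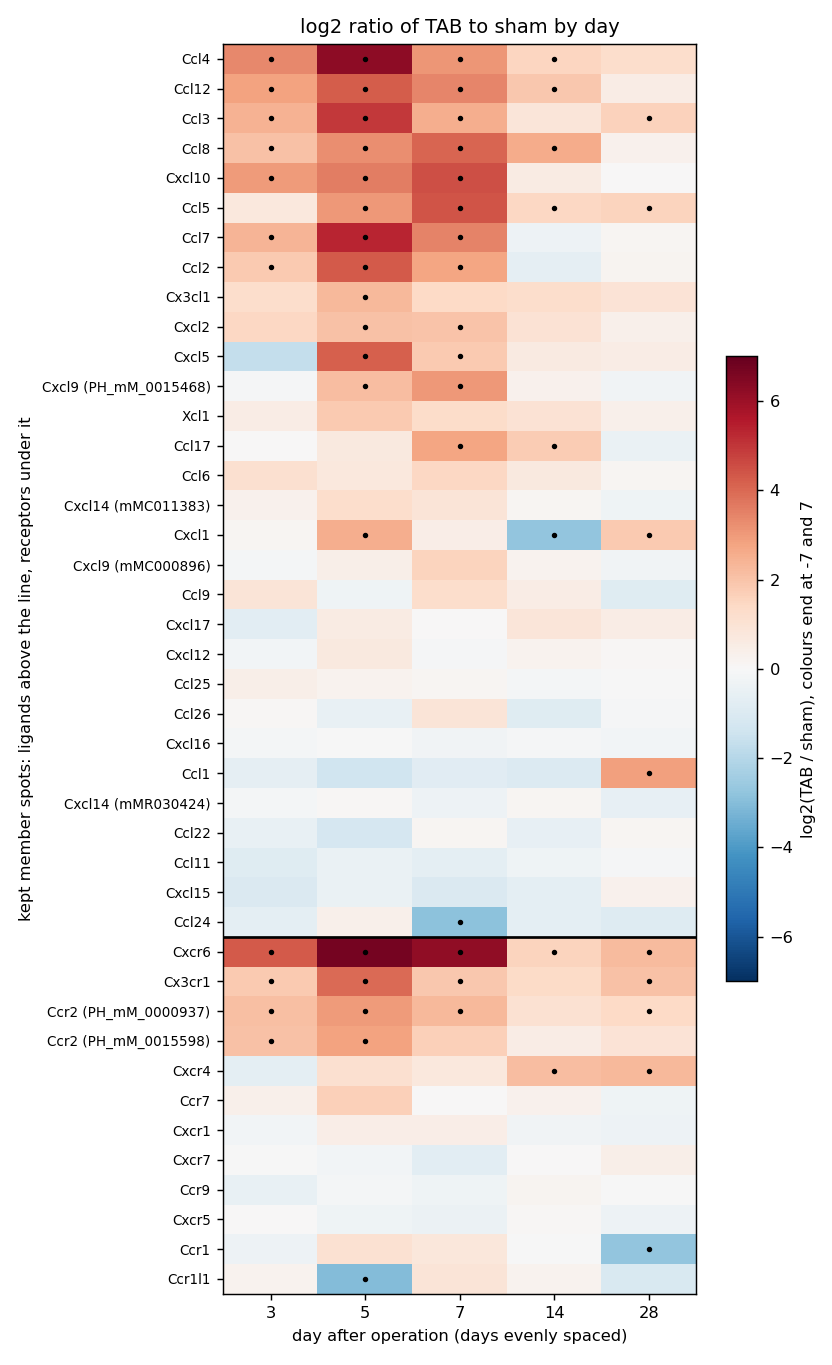
The log2 ratio of TAB to sham on each day (colour, red for higher in TAB) for the 42 kept spots, chemokines above the line and receptors under it, each in the order of its mean ratio; dots mark ratios beyond 2 SDs of that day. Calls up number 11, 17, 15, 7 and 8 from day 3 to day 28.

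The difference between the mean ratio of days 3, 5 and 7 and that of days 14 and 28 was tested in the same kind of fit. It passed the adjusted p of 0.05 for no chemokine or receptor spot (lowest 0.322) and for none of the 19976 kept spots (lowest 0.227). At an unadjusted p of 0.05, 9 spots had the larger ratio early (Cxcl10, Cxcr6, Ccl7, Ccl2, Ccl12, Ccl4, Cxcl2 and both Ccr2 spots), beside 6.03% of all kept spots, and 1 spot, Cxcr4, had the larger ratio late, against sham spots not found on those days. Of the 9, Cxcr6, Ccl4 and Cxcl2 were found on no sham array, so their differences too were taken against signals not well above background. Over all kept spots, 2086 had an unadjusted p below 0.05. Cxcl10 had a difference of 3.38 (SE 0.50, unadjusted p = 0.00104 in limma), and it passed the adjusted threshold when limma was run with trend and robust on. The difference was 3.82 for Ccl7 (SE 0.89), 3.18 for Ccl2 (SE 0.78) and 3.84 for Cxcr6 (SE 0.77), and it was -1.84 for Cxcr4 (SE 0.57). All 13 spots called on average had the larger mean ratio early, a direction that was not tested as such. Its share over all kept spots was not counted, so it is not shown to be particular to these genes.

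**Figure D4:**
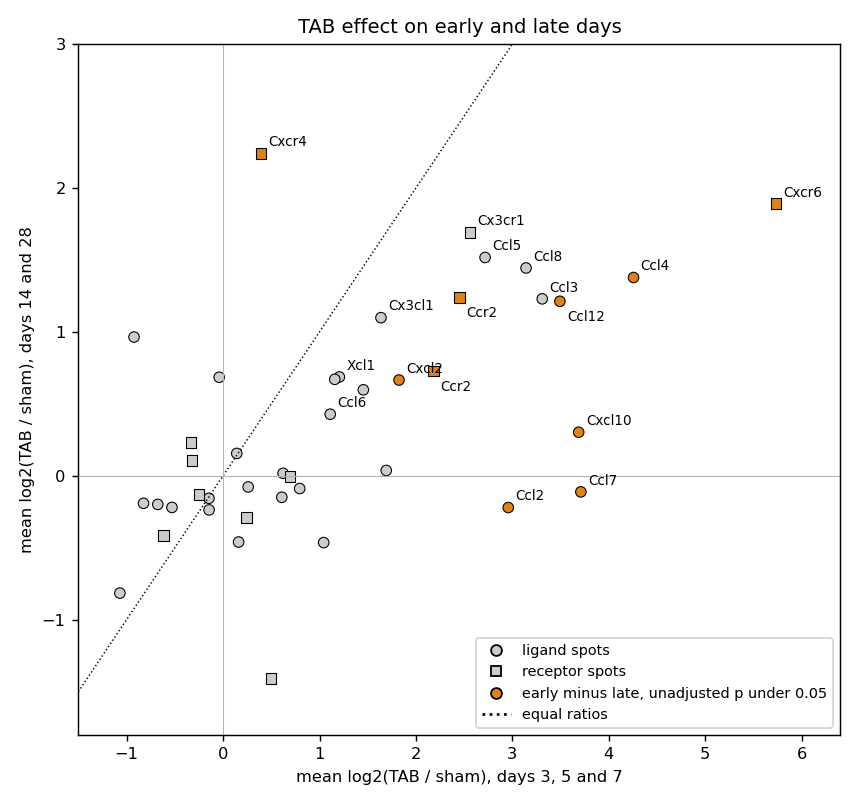
Mean log2 ratio on days 14 and 28 against that on days 3, 5 and 7 for the 42 kept spots; orange marks an unadjusted p under 0.05 for the difference and the dotted line equal ratios. The 9 orange spots right of the line have the larger ratio early, and Cxcr4 lies to its left.

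Many of these genes are neighbours in the genome. In the GRCm38.p6 gene order, Ccl5, Ccl9, Ccl6, Ccl3 and Ccl4 lie side by side on chromosome 11, and 4 of these 5 were called higher, all but Ccl9, beside 31% of the kept chemokine and receptor spots and 7.47% of all kept spots. Ccl2, Ccl7, Ccl11, Ccl12, Ccl8 and Ccl1 form a run of 6 on the same chromosome, of which 2 were called, near the share of these spots as a whole, and Ccl11 and Ccl1 had mean ratios below 0. On chromosome 9, Cxcr6, Xcr1, Ccr1, Ccr1l1, Ccr3 and Ccr2 form a run of 6 receptors, of which Xcr1 and Ccr3 were not tested. Of the others, Cxcr6 and Ccr2 were called, to be read beside the same shares of 31% and 7.47%. On chromosome 5, Cxcl2 was the called gene of a run of 4 with Cxcl15, Cxcl1 and Cxcl3, the last of which was not tested. On chromosome 8 Cx3cl1 lies between Ccl22 and Ccl17, which were not called.

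Genes that work with chemokines were counted as called when at least 1 kept spot passed, to be read beside the 7.47% of all kept spots called higher and 6.73% called lower. Of 9 atypical receptors and related genes, 4 were higher, namely Ccrl1 (1.43, SE 0.27) and Ccbp2 (0.83, SE 0.11), both scavenging receptors, the chemokine-like Cklf (1.21 and 0.96 on its 2 spots) and Pf4 (0.70, SE 0.14), a platelet CXC chemokine, all as mean log2 ratios. Darc, the erythroid and endothelial chemokine-binding protein, was lower (-0.58, SE 0.11). Of 28 genes that carry the receptors' signal, 12 were higher and 1, Rgs2 (-0.83, SE 0.12), a brake on G protein signalling, was lower. For Dock2, Vav1 and Elmo1, 1 of 2 spots passed. Among them were Pik3r5 (at least 3.56-fold, found on 4 TAB arrays and no sham array) and Pik3cg (1.37, SE 0.16), which form a phosphoinositide kinase under G protein control, Was (1.22, SE 0.17), which drives actin assembly, and Arrb2 (1.07, SE 0.14), an arrestin that turns off and internalizes receptors. Of 20 genes of leukocyte homing and adhesion, 8 were higher, among them Cd44 (at least 4.25-fold, found on all 5 TAB arrays and no sham array), Itgb2 (1.75, SE 0.26), Selplg (1.44, SE 0.25) and Sele (1.31, SE 0.32), which bind hyaluronan, endothelial adhesion molecules and selectins or are a selectin themselves. Of 21 inducers and inhibitors of chemokine transcription, 7 were higher, among them Il6 (at least 4.37-fold) and Nfkbie (at least 2.28-fold), both found on 3 TAB arrays and no sham array, Irf7 (1.40, SE 0.27) and Il33 (1.34, SE 0.31). The mean log2 ratios of Tnf (-0.04, SE 0.12) and Nfkb1 (-0.64, SE 0.20) were not called. Of 11 proteases that cut chemokines, 3 were higher, namely Mmp2 (1.5, SE 0.26), Mmp14 (1.30, SE 0.23) and Adam10 (0.59, SE 0.12), the sheddase of Cx3cl1 and Cxcl16. Without day 3, no gene of these lists or of the marker lists that follow was called higher. With values below 1 set to 1, the signal genes called higher fell to 3, the homing genes to 3, the atypical receptors to 1, the monocyte and macrophage markers to 3 and the fibroblast markers to 3, and no gene of the other lists was called higher.

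Markers of blood and tissue cells were counted in the same way. Whether these counts differ between cell types was not tested. Of 15 kept monocyte and macrophage markers, 11 were higher, such as Trem2 (2.49, SE 0.28), Cd68 (2.01, SE 0.36), Aif1 (1.64, SE 0.32) and C1qb (1.56, SE 0.18), with a median mean log2 ratio of 1.08. Their summed intensity was 13485 to 30503 in TAB and 7714 to 9541 in sham, and in TAB it was highest on day 5. Of 6 fibroblast markers 4 were higher (Col3a1, Col1a2, Postn and Lum), with sums of 58218 to 80058 in TAB and 46597 to 51165 in sham. Of 11 T cell markers, Lck (at least 4.76-fold) and Cd3d (at least 2.02-fold) were higher, found on 5 and 2 TAB arrays and on no sham array, and Cd3e was lower (-0.59, SE 0.13), and their sums were 462 to 607 in TAB and 495 to 734 in sham. The T cell sum, in which Cd3e was the brightest spot, was lower in TAB than in sham on each day. Of 10 neutrophil markers only S100a8 was called higher, on a spot found on no array, with sums of 349 to 683 in TAB and 355 to 463 in sham. Natural killer markers gave no call among 3 kept genes, with sums of 127 to 182 in TAB and 138 to 161 in sham, and of the removed genes Gzmb was found on 2 TAB arrays and no sham array, and Ncr1, Klrb1c, Prf1 and Eomes on none. B cell markers gave no call among 5, with sums of 633 to 799 in TAB and 648 to 874 in sham, and Ms4a1 was found on no array. Of 8 dendritic markers, which share Ccl22 and Ccr7 with the chemokine genes, Batf3 was higher, with sums of 288 to 495 in TAB and 229 to 336 in sham. Of 6 mast cell and eosinophil markers Prg2, found on 4 TAB arrays and no sham array, and Kit were higher, with sums of 612 to 751 in TAB and 670 to 836 in sham. None of 9 cardiomyocyte or 8 endothelial markers was called, with sums of 235420 to 250727 and 8269 to 11742 in TAB and 241130 to 275484 and 7876 to 10567 in sham. The cardiomyocyte sum includes Myl2, whose signal was saturated on 9 of the 10 arrays. The part of any of these cells in the chemokine and receptor values was not tested.

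**Figure D5:**
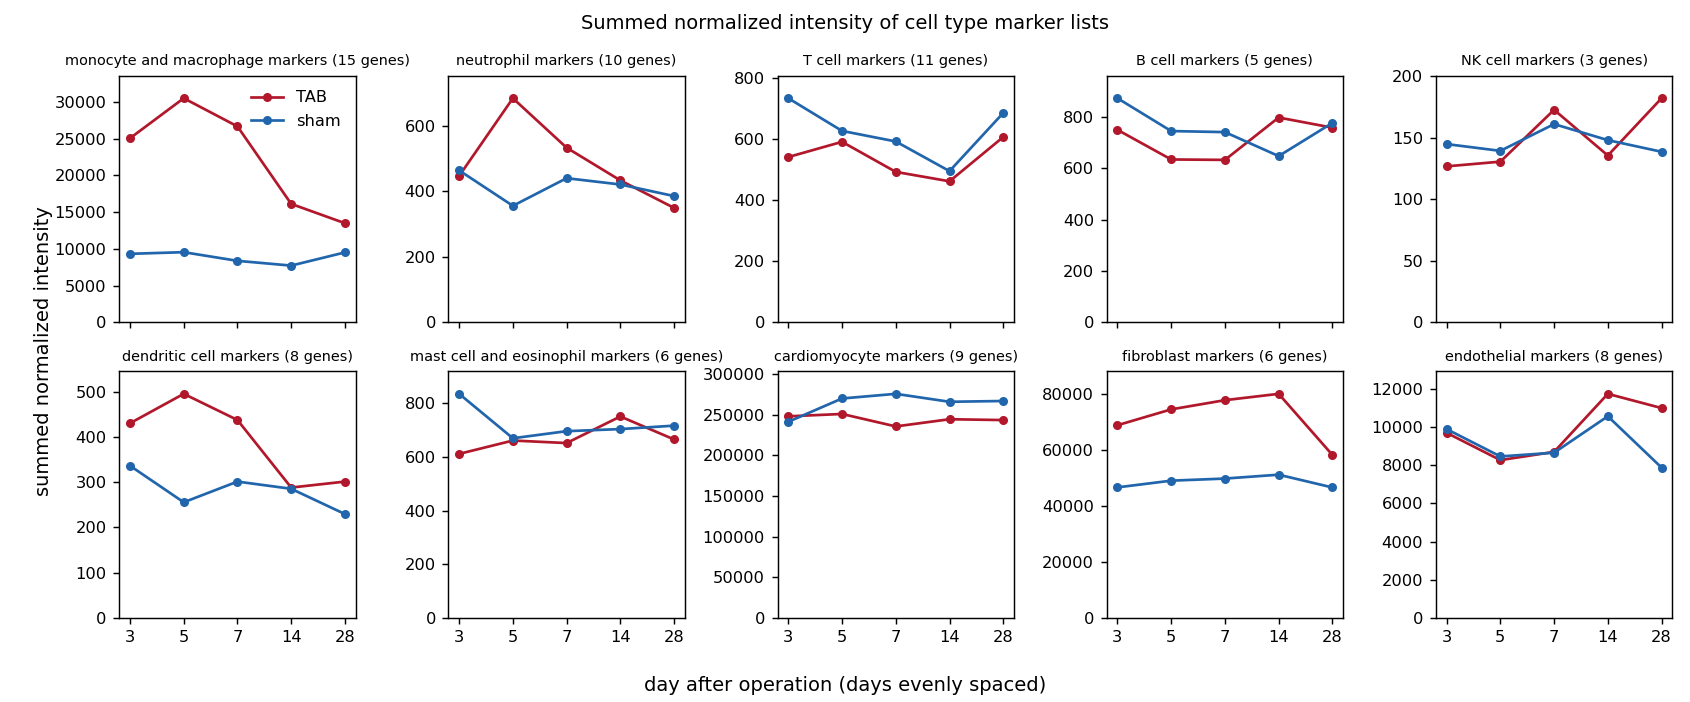
Summed normalized intensity of the kept spots of 10 cell type marker lists by day in TAB (red) and sham (blue), each axis starting at 0. The monocyte and macrophage sum lies at 13485 to 30503 in TAB and at 7714 to 9541 in sham, while the neutrophil and T cell sums of the 2 groups overlap in range. The T cell sum is lower in TAB than in sham on each day.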

How the data were processed

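Left ventricle RNA was amplified, given the dye Cy5 and put on a 1-colour Mouse Whole Genome OneArray, which was read with GenePix 4.1. The authors deposited raw background-subtracted intensity per spot, a flag per spot and array (unit other; its negative value was read as not found, as GenePix commonly uses it) and a detection p-value, which was not used. The background method is not given in the sources used here.

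Arrays were brought to the same median, a spot under 1 on any scaled array was dropped, and quantile normalization over the 10 arrays used the median at every rank and the mean for ties. Each spot was tested on its own with limma 3.58.1 in R 4.3.3 (lmFit and eBayes, day as a block, Benjamini-Hochberg over 19976 spots). The block follows the study's ratios, which were taken by day. No sample was dropped or imputed. For a spot found on no array of an operation, a bound takes each of that operation's arrays at the higher of the spot's value and the lowest signal of a found spot. Values of the other operation were kept also where the spot was not found, so such a bound is not a strict lower limit. Precision is limited by the number of arrays.

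The genes, the lists of related genes and markers, and the tests were chosen with earlier results of these data known. Values in every sample are given for spots that passed the test or whose groups did not overlap, and for their ligand or receptor partners found on at least 5 arrays. Cxcr4 and Cxcl12, and single values of other spots, were added after their values were seen. Of other lists, up to 4 called genes with the largest ratios are named, and further genes were named after their values were seen. Some genes that these rules match are not reported here. Alternatives were other scalings, floors, filters, spot choices, models and thresholds, and each day left out. The mean of all 5 sham samples as the reference was added after seeing the data. By construction it gives the same mean log2 ratios, so it could not alter them. Scripts were tested on simulated data.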

Additional observations from a re-analysis of the deposited data

Results flagged for a closer look

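Cx3cl1 had a TAB value of 282 on day 28, apart from 452, 490.1, 535 and 456 in the other TAB samples. On the log2 scale, its distance from the nearest of them exceeded the share of the group's range that Dixon's test allows at 95%. This was 1 of 16 groups of 5 samples tested, among the spots called or without overlap that were found on all arrays of the group, and about 5% of groups would meet the rule by chance. The TAB samples differ in day, so such a value also carries the time after surgery, which cannot be told apart from the sample. The Cx3cl1 sham value of that day was 145, and the log2 ratio was 0.96, against 1.24 to 2.27 on the other days.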

How the results depend on the processing

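The count of 13 spots higher in TAB was 12 (without Ccl5) with median scaling alone, 13 with quantile normalization done separately for TAB and sham, 13 with rank means in place of rank medians, 14 with 50 added before log2 (mean log2 ratios of the 13 spots then 0.45 to 2.39), 11 of 27 among spots found on all arrays of an operation (8 of the 27 passed through TAB alone and 1 through sham alone, which favours spots high in TAB), 12 with 1 spot per gene by either rule and 13 with trend and robust on. It was 0 with values below 1 set to 1, a fit that tested 26423 spots. With the day left out of the model (no replicate block) it was also 13, but Cxcl10 came in and Ccl6 went out (adjusted p = 0.0525). TAB and sham of the same day deviated from their group means with a correlation over spots of 0.00148 to 0.112. Leaving out 1 day in turn gave 0 to 12 spots higher and 0 to 2 lower, while the calls over all spots fell from 2836 to 13 without day 3, 35 without day 5, 23 without day 7 and 184 without day 14 and were 2773 without day 28; these fits have 1 sample fewer in each operation.

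The count lower in TAB was 0 but 1 (Ccl11) with 50 added, among spots found on all arrays of an operation and with trend and robust on, 1 at an adjusted p of 0.1, and 2 (Ccl1 and Cxcl15) without day 28. The early against late difference was called for 1 spot (Cxcl10) with trend and robust on and for 0 otherwise. The cause was not tested. With median scaling alone, 66.4% of all calls were higher, against 52.6% as reported, 65.5% with TAB and sham normalized separately and 71.2% with values below 1 set to 1. The share was 48.4% with 50 added, 47.6% among spots found on all arrays of an operation and 48.5% with trend and robust on. Over the alternatives, 8 to 14 spots had all TAB values above all sham values, and calls by day numbered 41 to 68. All 13 mean ratios stayed above 0 under each alternative that tested them. For the fits without a day this had to be so, since every daily ratio of these spots was above 0. Low signal over background limits the 24 kept spots not found on all arrays.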
